A study of Homo sapiens with 16 samples.

Results

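The β2 integrins are the adhesion receptors that leukocytes build around a single β chain, CD18. The 5 human genes that encode them were taken by gene name from a table of 60603 genes: ITGB2 for CD18 and, for its α partners, ITGAL (CD11a), ITGAM (CD11b), ITGAX (CD11c) and ITGAD (CD11d). RNA had been sequenced in 16 libraries from 2 established acute myeloid leukaemia (AML) lines, SKNO-1 and U-937, in 8 groups of 2 libraries. SKNO-1 carries the RUNX1-RUNX1T1 fusion and was kept in medium with 10 ng/mL GM-CSF, in its vehicle group as well as in its treated groups. U-937 is a monocytic line whose medium had no GM-CSF listed. In each line the groups were vehicle (DMSO), 0.1 µM all-trans retinoic acid (ATRA), 0.1 µM Corin, and both agents at 0.1 µM each, all for 24 h. Retinoic acid switches on its nuclear receptors, which act as transcription factors. Corin blocks both enzymes of the CoREST repressor complex, the histone demethylase LSD1 and the histone deacetylases. The labels do not say whether the 2 libraries of a group came from separate cultures, so the p-values measure the spread between these libraries, which may be technical. Each AML type is represented by 1 line.

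An integrin reaches the cell surface as a pair of 1 α and 1 β chain, and the CD11 chains pair with CD18, so loss of CD18 removes every β2 integrin from the cell. CD11a/CD18 (LFA-1) binds ICAMs and is carried by most leukocytes. CD11b/CD18 (Mac-1) binds ICAM-1, fibrinogen and the complement fragment iC3b, appears as granulocytes and monocytes mature, and is the usual surface marker of differentiation when AML cells are treated with ATRA. CD11c/CD18 is a complement receptor of macrophages and dendritic cells, and CD11d/CD18 is known from tissue macrophages. Resting β2 integrins are bent and are opened from inside the cell by talin and kindlin-3. Ligand binding then signals inward through SRC-family kinases and SYK.

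The α genes lie on chromosome 16 (GRCh38, GENCODE 44, all on the + strand), and 3 of them are side by side. ITGAM spans 31259967 to 31332892, ITGAX starts 22.2 kb further on and spans 31355134 to 31382999, and ITGAD follows after 10.3 kb at 31393335 to 31426505, so that the cluster is 167 kb long. ITGAL lies apart, at 30472658 to 30523567, 736 kb before ITGAM. ITGB2 is on chromosome 21, at 44885953 to 44931989 on the − strand. Reads were summed per gene over all its exons, so the values do not separate isoforms.

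A promoter sequence was at hand for ITGAM, which carried the largest rises of the family in SKNO-1. The sequence is shown as the stretch whose transcription the data bear on. It is the + strand of chr16:31259725-31259974 in RefSeq's GRCh38.p14, the 250 bases before RefSeq's start of the gene. Capitals mark a purine-rich GAGGAA of the kind bound by PU.1, then GGGCGG of the kind bound by SP1, and last the reverse complement of that SP1 motif.
ITGAM promoter: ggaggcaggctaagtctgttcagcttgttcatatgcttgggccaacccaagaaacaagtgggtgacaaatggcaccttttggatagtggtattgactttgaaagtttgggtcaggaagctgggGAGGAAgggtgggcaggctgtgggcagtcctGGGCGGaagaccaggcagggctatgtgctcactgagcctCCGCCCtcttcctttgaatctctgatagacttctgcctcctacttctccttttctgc
Both strands were searched, and positions count from the start of the gene. GAGGAA occurred once, at -127 to -122, and 23.6% of 35116 RefSeq promoter windows of this length hold it. GGGCGG occurred at -96 to -91 and, on the other strand, at -57 to -52, and 42.6% of windows hold it. AGGTCA, a spelling of the core site of nuclear receptors such as the retinoic acid receptors, did not occur in the window (12.1% of windows hold it). Nor did TGTGGT of RUNX factors (10.98%), TTGCGNAA of C/EBP factors (0.752%) or TATAAA (10.7%). Other spellings of these sites were not searched. A match describes the letters and does not show that a factor binds.

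Levels are given as CPM, the counts of a gene scaled to a common library total. The libraries held 32.8 to 37.8 M counts in SKNO-1 and 28.4 to 37.6 M in U-937. Both DMSO libraries of SKNO-1 stood apart from each other: log2 differences between them had an SD of 0.357 over genes, against 0.109 to 0.128 for the other SKNO-1 pairs and 0.140 to 0.198 for the U-937 pairs, and they followed the GC content of the genes (r = 0.787 across genes, which are not independent). Several of the members' changes against SKNO-1 DMSO are therefore also given without each of these libraries. Values of single genes outside the family mostly are not. All 7 myeloid markers were detected in both lines (summed 2636 to 4378 CPM in SKNO-1 and 650 to 3615 in U-937), with MPO under 1 CPM in U-937. RUNX1T1 was at 95.4 CPM or more in every SKNO-1 library. T-cell markers summed to at most 1.08 CPM in SKNO-1 and 3.11 in U-937, NK-cell markers to at most 0.158 and 1.36, B-cell markers to 4.24 to 8.76 and 4.77 to 13.4 with MS4A1 at 0, erythroid markers to at most 0.0612 and 0.0655, and epithelial markers to at most 0.19 and 0.114. The megakaryocyte markers PF4 and GP9 were at 0 in every library, while the third of that list, ITGA2B, is itself an integrin gene and is described with the other subunits.

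In vehicle-treated cells every β2 integrin gene was higher in U-937 than in SKNO-1. CPM use library totals scaled by TMM and compare 1 gene between libraries. ITGB2 was at 4.92 and 4.34 CPM in the SKNO-1 DMSO libraries and at 124 and 98.7 in U-937, a 24.1-fold difference (log2 4.59 ± 0.12 SE). ITGAL was at 0.24 and 0.225 CPM against 21.5 and 20.9, or 91.2-fold (log2 6.51 ± 0.36). ITGAX differed 16.4-fold and ITGAM 11.6-fold. ITGAD had 0 counts in all 8 SKNO-1 libraries, which allows up to 0.0112 CPM over them together (3 counts, counting error only), and 93 counts over both U-937 DMSO libraries, at least 33.5-fold higher when 3 counts are set as the floor for the SKNO-1 group. All 4 genes that could be tested were called higher (edgeR, quasi-likelihood test, Benjamini-Hochberg adjusted over 19872 genes, threshold 0.05, adjusted p at most 3.23e-12), where 31.7% of all genes tested were. In bulk RNA, more cells that express a gene and more RNA per cell cannot be told apart, here or in any result that follows. Medium with GM-CSF and line cannot be told apart either.

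Between genes, levels were compared per length, in TPM, the transcript share that RSEM estimated. In SKNO-1 DMSO the chains were at 1.42 TPM for ITGB2, 0.20 for ITGAL, 0.18 for ITGAM and 0.14 for ITGAX (means, n = 2), and the single libraries of the α genes overlapped, so they have no order. U-937 DMSO had ITGB2 at 43.2 TPM and ITGAL, the LFA-1 α chain, as its main α gene at 8.71, ahead of ITGAX at 2.45, ITGAM at 1.74 and ITGAD at 0.45. For ITGB2, ITGAM, ITGAX and ITGAL none of the 7 pairs of neighbours in the order of the 8 groups overlapped in CPM, as for 2.28% of 17114 tested genes above 0 in all groups, and for ITGAD none of the 3 pairs among the 4 U-937 groups did, as for 22.7% of 17512 genes. The mean of the highest group was 102 times that of the lowest for ITGB2, 343 times for ITGAX and 914 times for ITGAM. For ITGAD, over the U-937 groups alone, it was 22.8 times.

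**Figure D1:**
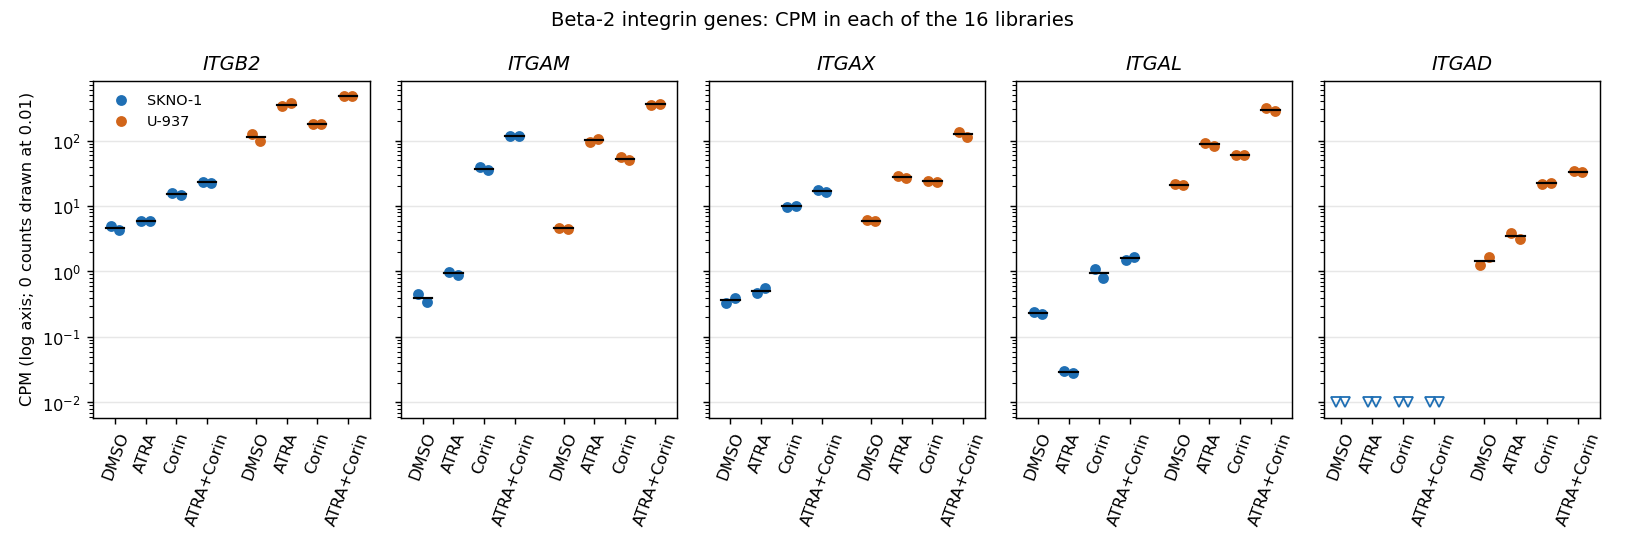
CPM of each β2 integrin gene in each library on a log axis, with a bar at the mean of the 2 libraries of a group; open triangles are libraries with 0 counts. ITGAM ran from 0.338 CPM in an SKNO-1 DMSO library to 367 in a U-937 library with both agents, and ITGAD was at 0 in all 8 SKNO-1 libraries.

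ITGB2, the chain every α member needs, had the smallest log2 changes of the tested members with Corin and with both agents in either line, a difference between genes that was not tested. With ATRA in U-937 its change lay above that of ITGAD. In SKNO-1 it was at 5.998 and 5.909 CPM with ATRA, above both DMSO libraries (4.92 and 4.34), but the change did not pass the test (log2 0.40 ± 0.12, adjusted p = 0.114, edgeR). Corin raised it to 15.6 and 14.5 CPM, or 3.26-fold (log2 1.71 ± 0.12, adjusted p = 4.39e-05), and both agents to 23.1 and 22.8 CPM, or 5.14-fold (log2 2.36 ± 0.12, adjusted p = 6.72e-06). In U-937 it went from 124 and 98.7 CPM to 332 and 371 with ATRA, or 3.15-fold (log2 1.65 ± 0.11, adjusted p = 3.1e-11), to 180 and 177 with Corin, or 1.60-fold (log2 0.68 ± 0.11, adjusted p = 0.00012), and to 472 and 471 with both, or 4.25-fold (log2 2.09 ± 0.11, adjusted p = 1.04e-13). Of the single agents, ATRA gave the higher level in U-937 and Corin in SKNO-1, a pair that was not tested head to head. Without the first DMSO library of SKNO-1 the ATRA change there was called (log2 0.47, adjusted p = 0.0144), and without the second it was not (log2 0.25, adjusted p = 0.211).

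ITGAM, the CD11b gene, had the largest log2 rise of the members against DMSO with ATRA and with both agents in either line. With Corin it had the largest rise in SKNO-1, while in U-937 that of ITGAD was larger (3.92 against 3.55). With ATRA in SKNO-1 the fall of ITGAL was larger in size (log2 −2.96, with 2 counts under ATRA). In SKNO-1 ITGAM stood at 0.45 and 0.338 CPM with DMSO, 15 and 12 counts. With ATRA it was at 0.984 and 0.888 CPM, 32 counts in each library. With Corin it reached 39.0 and 35.7 CPM, 1303 and 1154 counts, and with both agents 117 and 116 CPM. All 4 libraries with Corin held 35.7 CPM or more of CD11b RNA, while both ATRA libraries stayed below 1 CPM. The fold changes against DMSO were 95.4 for Corin (log2 6.58 ± 0.28, adjusted p = 2.4e-07, edgeR) and 308 for both agents (log2 8.27 ± 0.28, adjusted p = 5.7e-08). ITGAM was 61st and 22nd from the top of 17479 genes ordered by edgeR's own fold change, which is drawn towards 0 at low counts. ATRA's 2.44-fold change (log2 1.29 ± 0.33, adjusted p = 0.00825) was called, but not without the first ATRA library (log2 1.17, adjusted p = 0.0701) nor in a fit of the DMSO and ATRA libraries alone (log2 1.27, adjusted p = 0.187). Without the first or the second DMSO library the changes were 6.79 and 6.34 for Corin and 8.49 and 8.04 for both agents, on the log2 scale.

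In U-937 the same gene answered each agent. It was at 4.65 and 4.42 CPM under vehicle, at 96.0 and 105 with ATRA, at 55.5 and 50.3 with Corin, and at 353 and 367 under the combination. No group overlapped another, which holds for 22.7% of all genes in this line. ATRA raised it 22.1-fold (log2 4.46 ± 0.12, adjusted p = 1.98e-18, edgeR), Corin 11.7-fold (log2 3.55 ± 0.12, adjusted p = 1.91e-15) and both agents 79.7-fold (log2 6.32 ± 0.13, adjusted p = 2.61e-21). By fold change it ranked 134th, 126th and 180th of 17717 genes.

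Against DMSO, ITGAX, the CD11c gene next to ITGAM, moved in the same direction as ITGAM but less far. In SKNO-1 it went from 0.33 and 0.395 CPM under vehicle to 0.461 and 0.555 with ATRA, 9.59 and 10.2 with Corin, and 17.5 and 16.1 under the combination. Corin raised it 27.3-fold (log2 4.77 ± 0.29, adjusted p = 3.04e-06, edgeR) and both agents 47.9-fold (log2 5.58 ± 0.29, adjusted p = 7.62e-07). The ATRA change did not pass the test (log2 0.53 ± 0.38, adjusted p = 0.495), although its libraries lay above both DMSO libraries. Without the first or the second DMSO library the log2 changes were 4.65 and 4.87 for Corin and 5.47 and 5.69 for both agents. U-937 held 6.04 and 5.86 CPM under vehicle, 29.2 and 26.9 with ATRA, 24.1 and 23.5 with Corin, and 137 and 111 under the combination. These are rises of 4.70-fold, 4.01-fold and 20.9-fold (log2 2.23 ± 0.13, 2.00 ± 0.13 and 4.39 ± 0.13, adjusted p at most 3.94e-11).

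ITGAL, the LFA-1 α chain, was the member that ATRA moved in opposite directions in the lines, on very few counts in one of them. SKNO-1 had 8 counts in each DMSO library and 1 count in each ATRA library. The call was lower (adjusted p = 0.0261, edgeR), and the DMSO to ATRA ratio of 16 to 2 counts was 7.97, with an exact 95% interval of 1.87 to 71.4 that covers counting error only. It was lost in 6 of 14 alternatives (adjusted p over all of them from 0.0092 to 0.156): with a replicate block (0.0516), with DESeq2 (0.138), without either ATRA library (0.132 and 0.156) and without either library of both agents (0.0595 and 0.0619). Corin and both agents moved ITGAL the other way, from 0.24 and 0.225 CPM to 1.08 and 0.803, or 4.06-fold (log2 2.02 ± 0.40, adjusted p = 0.00214), and to 1.52 and 1.68, or 7.13-fold (log2 2.83 ± 0.39, adjusted p = 0.000248), so that it ended near 1 CPM. Without the first or the second DMSO library these log2 changes were 2.06 and 1.93, and 2.89 and 2.76. The gene was abundant in U-937: 21.5 and 20.9 CPM under vehicle, 92.1 and 83.6 with ATRA (4.14-fold, log2 2.05 ± 0.10), 60.6 and 60.0 with Corin (2.85-fold, log2 1.51 ± 0.10), and 308 and 278 with both (13.9-fold, log2 3.79 ± 0.11), with adjusted p at most 1.44e-10.

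ITGAD, the CD11d gene, was at 0 in SKNO-1 under every treatment and low in U-937 at 1.27 and 1.67 CPM with DMSO. ATRA brought it to 3.89 and 3.17 CPM, or 2.41-fold (log2 1.27 ± 0.19, adjusted p = 8.13e-06, edgeR). With Corin it was at 21.4 and 22.8 CPM, or 15.1-fold (log2 3.92 ± 0.17, adjusted p = 3.54e-14), and with both agents at 34.1 and 32.9, or 23.0-fold (log2 4.52 ± 0.17, adjusted p = 7.38e-17). Among the members in U-937 it was the one whose level was higher with Corin than with ATRA, with libraries that did not overlap. RSEM gave it values that were not whole in 6 of 8 U-937 libraries, as it can where reads also fit other genes. The reads themselves were not examined.

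Counted over the family, ATRA changed 2 of 4 genes in SKNO-1, 1 up and 1 down, where 6.76% of all genes tested were called in either direction. Corin raised 4 of 4 (20.5% of all genes higher), and so did both agents (24.7%). The median log2 change of the 4 genes was 3.40 with Corin and 4.21 with both, against 0.0013 and 0.055 over all genes. In U-937, 5 of 5 genes rose with ATRA (21.7% of all genes higher), with Corin (8.55%) and with both (33.1%), with medians of 2.05, 2.00 and 4.39 against 0.018, 0 and 0.034.

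**Figure D2:**
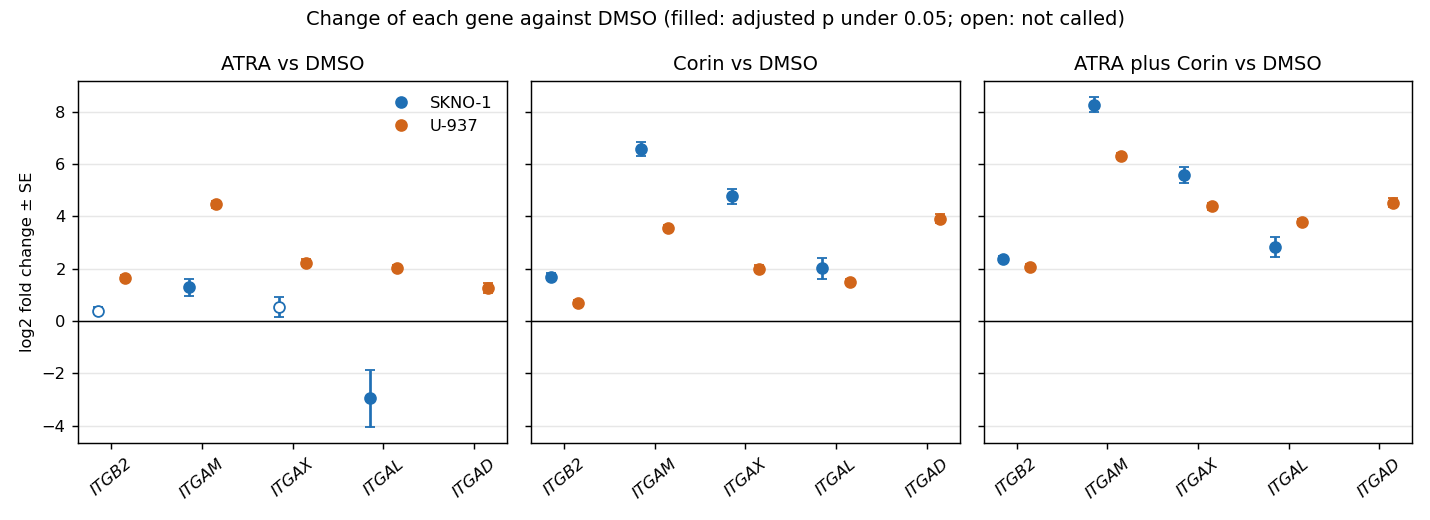
Log2 fold change against DMSO with its standard error for each gene, agent and line; filled points passed the test. ITGAM is the highest point of each line with both agents (8.27 in SKNO-1 and 6.32 in U-937), and with ATRA the SKNO-1 points for ITGB2 and ITGAX are open.

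The mix of α chains differed between the groups. Shares of the summed α TPM are descriptions, since 2 libraries against 2 cannot give an exact permutation p under 0.05. In U-937 DMSO, ITGAL made up 65.3% of the α sum, ITGAX 18.3%, ITGAM 13.03% and ITGAD 3.40% (means of 2 libraries). ATRA brought ITGAM to 46.3%, Corin to 38.3% and both to 44.8%, while ITGAL was at 36.5% to 38.9% of the sum although its own RNA rose. With Corin, ITGAM had the larger share in the first library and ITGAL in the second, so they have no order there. ITGAD took 11.8% with Corin and at most 3.48% in the other groups. In SKNO-1 the α sum was 0.52 ± 0.16 TPM (SD, n = 2) with DMSO, too little for a firm order, and ITGAM was 78.8% of 14.7 TPM with Corin and 86.0% of 32.1 TPM with both agents. Those cells therefore held mostly CD11b among their β2 α transcripts, and ITGAL was at most 2.15% in these groups.

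The balance of α to β RNA also differed between the groups. The α sum per ITGB2, both in TPM, was 0.31 ± 0.033 (SD, n = 2) in U-937 under vehicle, 0.54 ± 0.091 with ATRA, 0.77 ± 0.040 with Corin and 1.54 ± 0.041 under the combination. In SKNO-1 it was 0.36 ± 0.077 under vehicle, 0.31 with ATRA, 3.06 ± 0.15 with Corin and 5.34 ± 0.14 under the combination. So α RNA exceeded β RNA per length in SKNO-1 with Corin, with or without ATRA, and in U-937 with both agents. RSEM's effective length of a gene differed between libraries (457 to 3772 bases for ITGAL in SKNO-1, 1432 to 2909 for ITGAM). With 1 length per gene the SKNO-1 ratios were 0.20, 0.23, 2.95 and 5.43 and those of U-937 0.29, 0.59, 0.82 and 1.61, and the ITGAL share in SKNO-1 was 24.9% in place of 38.1% with DMSO and 2.13% in place of 9.34% with ATRA. In U-937 with Corin, 1 length per gene put ITGAM at 33.3% and ITGAL at 40.6% of the α sum. This reverses the order of their mean TPM shares. With ATRA and with both agents the mean share of ITGAM stayed above that of ITGAL. RNA amounts do not measure pairs at the cell surface.

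**Figure D3:**
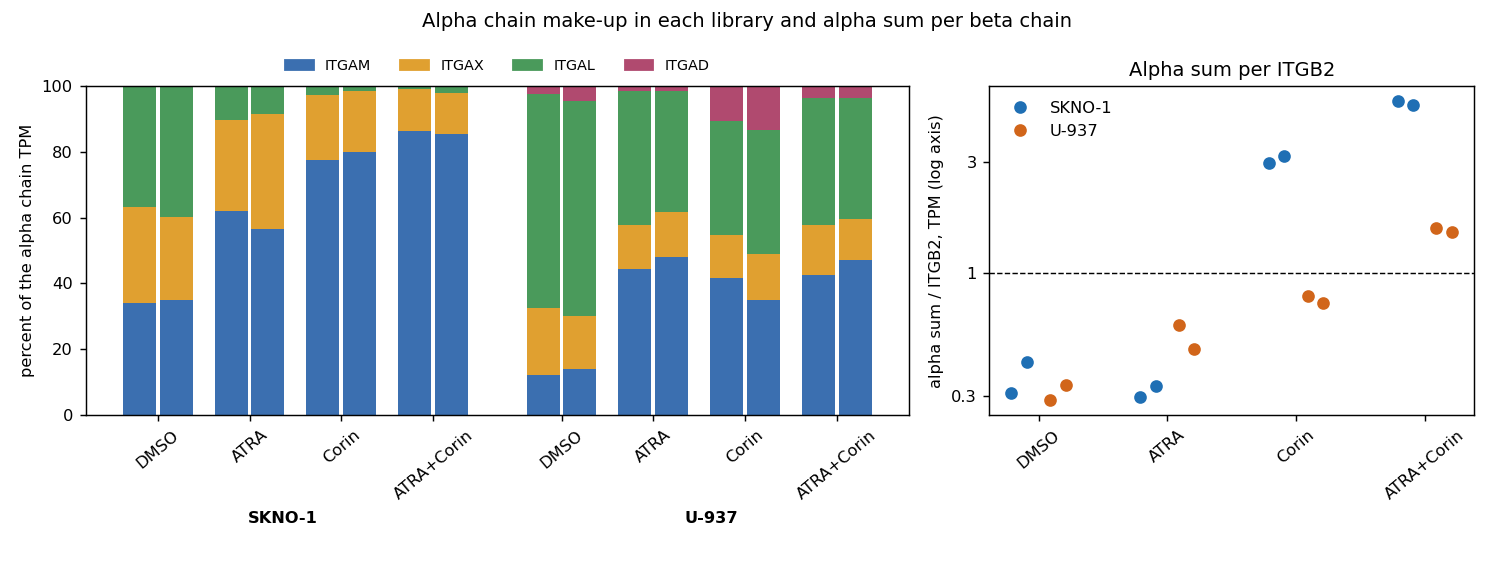
Left, percent of the summed α chain TPM held by each α gene, 1 bar per library; right, α sum divided by ITGB2 TPM in each library on a log axis, with a dashed line at 1. The libraries above 1 are the 4 SKNO-1 libraries with Corin and the 2 U-937 libraries with both agents, and ITGAL has the tallest part of both U-937 DMSO bars.

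Adding the second agent moved the family further. In SKNO-1 both agents gave higher levels than ATRA alone for 4 of 4 genes (23.0% of all genes higher, and 51.3% of all calls were higher, or 61.6% with the GC trend removed): ITGAM by log2 6.98 ± 0.18, ITGAX by 5.05 ± 0.25 and ITGB2 by 1.96 ± 0.12, while ITGAL went from 2 to 103 counts (ratio 54.9, exact 95% interval 14.8 to 459.6, counting error only). Over Corin alone, ATRA added log2 1.69 ± 0.085 for ITGAM (adjusted p = 2.75e-05, edgeR), 0.81 ± 0.12 for ITGAX (adjusted p = 0.00657) and 0.66 ± 0.11 for ITGB2 (adjusted p = 0.01), 3 of 4 genes against 4.82% of all genes higher. ITGAL differed by 0.81 ± 0.26 and did not pass (adjusted p = 0.084), but was called without either DMSO library (0.0355 and 0.0357) and in a fit of the libraries compared alone (0.0188). Of these, ITGAM was called in every alternative. The calls of ITGAX and ITGB2 were lost when any 1 of the 4 libraries with Corin was left out (adjusted p 0.0646 to 0.101 and 0.0873 to 0.112), and that of ITGB2 also with the GC trend removed (log2 0.17, adjusted p = 0.364).

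U-937 showed the same step for 5 of 5 genes over either agent. Over ATRA alone (22.5% of all genes higher), Corin added log2 3.25 ± 0.15 for ITGAD, 2.15 ± 0.11 for ITGAX, 1.85 ± 0.098 for ITGAM, 1.75 ± 0.098 for ITGAL and 0.43 ± 0.11 for ITGB2. The ITGB2 call (adjusted p = 0.00215, edgeR) was lost without the first ATRA library (log2 0.35, adjusted p = 0.0681). Over Corin alone (29.9%), ATRA added 2.77 ± 0.10 for ITGAM, 2.39 ± 0.11 for ITGAX, 2.28 ± 0.10 for ITGAL, 1.40 ± 0.11 for ITGB2 and 0.60 ± 0.12 for ITGAD.

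A departure from additivity on the log2 scale was tested as the change under the combination less the ATRA and the Corin change added up. In U-937 it was called for 2 of 5 genes, where 23.4% of all genes were called in either direction and 34.6% of those calls were higher (47.5% with the GC trend removed). ITGAM stayed 1.69 ± 0.15 log2 units below the sum (adjusted p = 9.94e-09, edgeR), that is, both agents gave 0.309 times the level the product of the single folds would. ITGAD stayed 0.67 ± 0.23 below (adjusted p = 0.0361), a call lost in 8 of 14 alternatives: with GC removal (−0.51, adjusted p = 0.115), with DESeq2 (0.0692), with a replicate block (0.0529), and without the first DMSO (0.242), the first ATRA (0.216), the second Corin (0.0711) or either library of both agents (0.0523 and 0.0695). ITGAX, ITGAL and ITGB2 lay at 0.15 ± 0.17, 0.23 ± 0.14 and −0.25 ± 0.16 and did not pass, with ITGAL called once the GC trend was removed (0.40, adjusted p = 0.0156). In SKNO-1, 0 of 4 genes were called by edgeR (0.463% of all genes in either direction): ITGAM was at 0.40 ± 0.33, ITGAX at 0.28 ± 0.38 and ITGB2 at 0.25 ± 0.16. ITGAL, with 2 counts under ATRA, was at 3.77 ± 1.11 (unadjusted p = 0.000476, adjusted p = 0.0656) and was called in 4 of 14 alternatives, 2 of them without one of the DMSO libraries (adjusted p = 0.0218 and 0.00358), the others with no low-count filter (0.00119) and with GC removal (0.0279). DESeq2 called 0 of 4 as well.

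**Figure D4:**
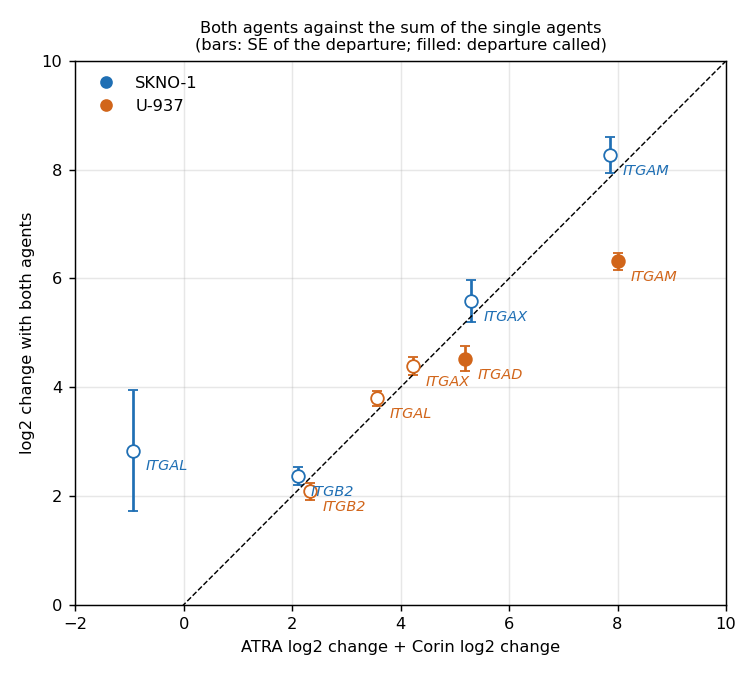
Log2 change with both agents (vertical) against the sum of the log2 changes of ATRA and Corin alone (horizontal), with bars for the standard error of the departure and filled points where it was called. ITGAM in U-937 lies 1.69 below the dashed line of equality, and ITGAX of both lines and ITGB2 lie near it.

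The lines differed in how far each agent moved most of the members. This was tested as the difference of the changes in a model of all 16 libraries. The ATRA change was larger in U-937 for 4 of 4 genes (19.4% of all genes called in either direction): by log2 5.04 ± 1.08 for ITGAL, 3.21 ± 0.34 for ITGAM, 1.74 ± 0.39 for ITGAX and 1.29 ± 0.17 for ITGB2 (adjusted p at most 0.00106, edgeR). The ITGAL value rests on 2 counts in SKNO-1 with ATRA. The Corin change was larger in SKNO-1 for 3 of 4 genes (12.8%): U-937 minus SKNO-1 was −3.03 ± 0.29 for ITGAM, −2.77 ± 0.31 for ITGAX and −1.03 ± 0.16 for ITGB2 (adjusted p at most 0.000195), and −0.51 ± 0.41 for ITGAL, which did not pass (adjusted p = 0.436). With both agents the differences were −1.91 ± 0.29 for ITGAM, −1.15 ± 0.30 for ITGAX, 1.00 ± 0.39 for ITGAL (adjusted p = 0.0438) and −0.23 ± 0.16 for ITGB2 (adjusted p = 0.268), 3 of 4 called where 40.6% of all genes were. The ITGAL call was lost in 6 of 23 alternatives: with no low-count filter (adjusted p = 0.0739), without the first (0.197) or second (0.14) DMSO library or the first combination library (0.0874) of SKNO-1, and without the second DMSO (0.0561) or first combination library (0.0704) of U-937. ITGB2 was called without the second U-937 DMSO library (−0.39, adjusted p = 0.046). ITGAM, ITGAX and ITGB2 kept their calls for the ATRA and the Corin differences in each of 23 alternatives. Larger folds in SKNO-1 started from lower levels, and the level reached by ITGAM with both agents was still 117 CPM there against 360.2 ± 9.4 in U-937.

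The genes around the family were described in the same way. Of 14 protein-coding genes described within 150 kb of the ITGAM to ITGAD cluster, 9 could be tested in SKNO-1, and 6 rose and 1 fell with both agents, with a median log2 change of 0.80 (24.7% and 22.0% of all genes tested were called higher and lower). The largest rise was that of ZNF843 (log2 5.15), close to the 5.58 of ITGAX. Others were TRIM72 (2.68 ± 0.40), 28.4 kb away, and TGFB1I1 (2.70 ± 0.28), while ARMC5 fell by 1.37 ± 0.31. Of 8 tested in U-937, 3 rose and 0 fell, with a median of 0.54, and for the rises this lies near the 33.1% of all genes called higher there (32.2% lower). PYCARD, the inflammasome adaptor, rose by 0.95 ± 0.12. With Corin alone 4 of 9 rose and 1 fell in SKNO-1 (20.5% and 17.3% of all genes), and 0 of 8 rose and 1 fell in U-937 (8.55% and 4.40%). With ATRA alone 0 of 9 changed in SKNO-1 (edgeR, 6.76% in either direction) and 3 of 8 rose in U-937 (21.7%). Around ITGAL 3 of 15 rose and 1 fell in SKNO-1 with both agents, and 6 of 16 rose and 4 fell in U-937, near or under the shares of all genes. Around ITGB2 the counts were 2 and 1 of 5, and 1 and 4 of 5, where UBE2G2 fell by 1.07 ± 0.096.

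**Figure D5:**
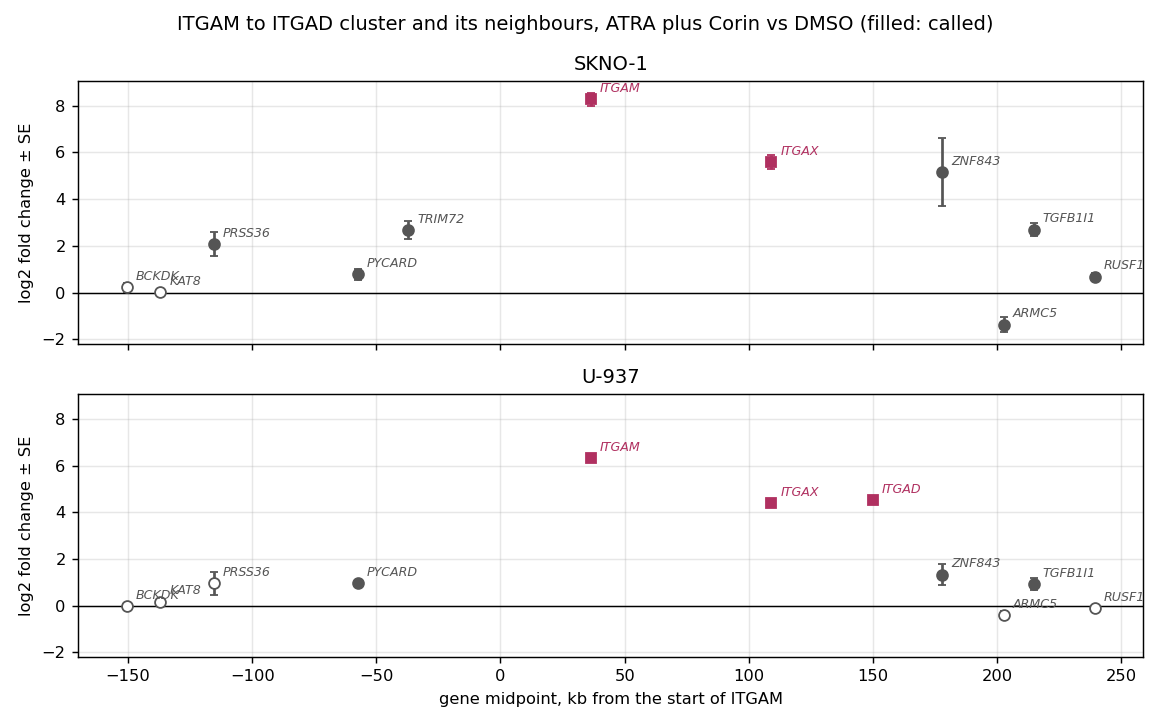
Log2 change with both agents and its standard error against the distance of the midpoint of each tested gene described here from the start of ITGAM, in kb; squares are β2 integrin genes and filled symbols passed the test. ITGAM and ITGAX stand at 8.27 and 5.58 in SKNO-1 and at 6.32 and 4.39 in U-937.

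ITGB2-AS1, a lncRNA gene that overlaps ITGB2 by 8630 bases on the other strand, rose with it in U-937 and, with both agents, in SKNO-1. It was there at 0.393 and 0.491 CPM under vehicle, 1.97 and 2.02 with ATRA (log2 2.18 ± 0.30), 2.39 and 2.58 with Corin (log2 2.49 ± 0.29), and 16.3 and 14.1 with both (log2 5.12 ± 0.28, adjusted p = 7.51e-15, edgeR). SKNO-1 gave 3 counts over both DMSO libraries, 5 with ATRA, 26 with Corin and 48 with both. On these few counts the change with both agents was log2 4.15 and was called. With Corin it was log2 3.18, and 7 of 13 alternatives differed in the call. The kit marks strand, but the strand setting of the counting is not given in the sources used here, so reads of ITGB2 and of its antisense gene may be mixed. ITGB2-AS1 reached at most 16.3 CPM in any library, beside 472 for ITGB2.

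The other integrin subunits, a list of 21 genes, were called more often upward than downward except with ATRA in SKNO-1. In SKNO-1, 16 could be tested: 2 rose and 4 fell with ATRA (2.96% and 3.79% of all genes higher and lower), 9 rose and 1 fell with Corin (20.5% and 17.3%), and 10 rose and 3 fell with both (24.7% and 22.0%), with medians of −0.0021, 0.81 and 1.02 on the log2 scale. With the gene that had a group at 0 set to its bound, the ATRA median was 0.0083. In U-937, of 14 tested, 8 rose and 2 fell with ATRA (21.7% and 20.1%), 7 rose and 0 fell with Corin (8.55% and 4.40%), and 13 rose and 0 fell with both (33.1% and 32.2%), with medians of 0.78, 0.64 and 1.38. ITGB7, the β chain of the gut-homing integrins, went from 0.936 ± 0.29 CPM to 24.1 ± 0.23 with both agents in SKNO-1 (log2 4.74 ± 0.19) and from 0.222 ± 0.057 to 24.5 ± 0.17 in U-937 (log2 6.80 ± 0.39). ITGA6, a laminin receptor chain, went from 333 ± 15.9 to 4149 ± 414 CPM in U-937 with both, and ITGA1, a collagen receptor chain, from 0.577 ± 0.17 to 20.2 ± 0.92. ITGA5, the fibronectin receptor chain, rose from 182 ± 24.1 to 463 ± 13.2 CPM with ATRA in SKNO-1. ITGA2B, the platelet integrin chain, fell there with ATRA (10.2 ± 3.6 to 4.44 ± 0.19 CPM) and rose with Corin (to 37.7 ± 0.36). The 6 calls with ATRA in SKNO-1 became 10 without the first DMSO library and 2 with only the libraries compared, and ITGA2B lost its ATRA call when any ATRA, Corin or combined library was left out (adjusted p 0.0522 to 0.144, edgeR) and with only the libraries compared (0.183).

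Genes that open β2 integrins from inside, or restrain them, numbered 13 and were all tested. In U-937, 10 rose and 1 fell with ATRA and 10 rose and 1 fell with both, with medians of 0.72 and 1.00, while Corin raised 2 and lowered 0. Of all genes in U-937, 21.7% were called higher and 20.1% lower with ATRA, 33.1% and 32.2% with both, and 8.55% and 4.40% with Corin. APBB1IP (RIAM, which links RAP1 to talin) went from 15.2 ± 1.8 to 65.7 ± 7.7 CPM with ATRA (log2 2.11 ± 0.12) and to 80.0 ± 0.91 with both. Talin 1 (TLN1) went from 289 ± 22.0 to 531 ± 6.9 CPM with ATRA and to 736 ± 22.5 with both, and kindlin-3 (FERMT3) from 43.6 ± 3.8 to 80.3 ± 11.3 and 92.4 ± 0.35. The SKNO-1 counts were 1 rise with ATRA, 3 rises and 5 falls with Corin and 3 rises and 1 fall with both, with medians of 0.065, −0.21 and 0.11. Over the whole SKNO-1 table ATRA gave 2.96% rises and 3.79% falls, followed by 20.5% and 17.3% with Corin, and 24.7% and 22.0% with both, so the rises with Corin and with both lie near the background. There CYTH1 (cytohesin 1, a CD18 binding protein) rose from 38.7 ± 2.0 to 95.5 ± 0.049 CPM with Corin, and RASGRP2, the exchange factor that activates RAP1, fell from 32.3 ± 6.3 to 16.2 ± 0.55. TLN1, FERMT3 and APBB1IP fell by 0.48 ± 0.093, 0.74 ± 0.25 and 0.65 ± 0.13 in SKNO-1 with Corin, next to the 95.4-fold rise of ITGAM. FERMT3 lost that call with the replicate block (adjusted p = 0.0661, edgeR), with at least 1 CPM in 2 libraries (0.0609), with only the libraries compared (0.124) and without any 1 of the Corin, ATRA or combined libraries (0.0681 to 0.217). TLN1 lost it without the second Corin library (0.0543) and APBB1IP without the first (0.051). Without the first or second DMSO library of SKNO-1 the list's calls were 8 and 10 with ATRA and 9 and 11 with both, and without the second they were 13 with Corin; with ATRA they were 0 when any 1 of the other libraries was left out, and Corin in U-937 gave 0 without the second DMSO library.

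Ligands of the family formed a list of 10. In SKNO-1, of 8 tested, 2 rose with ATRA, 5 with Corin and 5 with both, and 0 fell, with medians of −0.091, 0.53 and 1.16 (2.96%, 20.5% and 24.7% of all genes were called higher). In U-937, of 7 tested, 4, 4 and 7 rose and 0 fell, with medians of 0.53, 0.89 and 2.09 (21.7%, 8.55% and 33.1% of all genes). The SKNO-1 calls with ATRA were 4 without either DMSO library and 1 without any other library, and those with both agents were 9 without the first DMSO library. ICAM1 rose in SKNO-1 from 18.2 ± 2.8 to 39.8 ± 1.8 CPM with ATRA and 51.4 ± 0.95 with both, and in U-937 from 32.3 ± 1.0 to 46.8 ± 0.46 and 54.6 ± 2.1. ICAM3 rose in U-937 from 19.0 ± 0.67 to 123 ± 4.0 CPM with both, and F11R (JAM-A, a ligand of LFA-1) from 71.8 ± 9.2 to 362 ± 25.3.

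Of 14 genes that carry the signal of bound β2 integrins into the cell, 14 rose with ATRA in U-937 and 13 with both, with 0 falls, and Corin raised 4 and lowered 1 (medians 0.75, 1.12 and 0.14), where 21.7%, 33.1% and 8.55% of all genes were called higher. FGR, a SRC-family kinase, went from 10.2 ± 0.025 to 203 ± 8.7 CPM with ATRA (log2 4.32 ± 0.11) and 283 ± 5.1 with both. TYROBP (DAP12), an adaptor of β2 integrin signalling, went from 3.36 ± 0.030 to 28.9 ± 1.5 and 62.2 ± 4.1 CPM. In SKNO-1 the counts were 3 up and 2 down with ATRA, 4 up and 1 down with Corin and 7 up and 3 down with both (medians −0.025, 0.097 and 0.25), where 2.96%, 20.5% and 24.7% of all genes were called higher and 3.79%, 17.3% and 22.0% lower. FGR went from 0.281 ± 0.24 to 7.65 ± 0.53 CPM there with both agents. Without the first or second DMSO library of SKNO-1 the signalling calls were 9 and 10 with ATRA and 10 and 9 with Corin, against 1 to 3 with ATRA when any other library was left out, and with both agents they were 6 without the second combined library. Among 8 factors known to bind the promoters of these genes, 5 rose and 0 fell with ATRA in U-937, 1 rose and 1 fell with Corin, and 3 rose and 4 fell with both, the last near the shares of all genes (33.1% higher and 32.2% lower). With ATRA 21.7% of all genes were higher, and with Corin 8.55% were higher and 4.40% lower. SPI1 (PU.1) went from 13.4 ± 3.0 to 26.0 ± 4.1 CPM with ATRA and 26.8 ± 0.93 with both in U-937, and CEBPE, a factor of granulocyte maturation, from 3.10 ± 0.20 to 22.4 ± 4.9 and 28.9 ± 1.5. In SKNO-1, 1 rose and 0 fell with ATRA, 1 rose and 2 fell with Corin, and 1 rose and 3 fell with both, against the shares of all genes given above for the signalling list. CEBPA rose from 8.74 ± 1.8 to 25.3 ± 1.7 CPM with both, and SPI1 did not pass in any of the 3 comparisons (log2 −0.0055, −0.32 and 0.55, adjusted p at least 0.0806). Without the first or second DMSO library the SKNO-1 factor calls were 8 and 4 with ATRA and 6 and 5 with Corin, and 7 with both agents without the first. They were 0 with ATRA without either ATRA library and 0 with Corin without either Corin library. In U-937 the factor calls were 2 or 3 with ATRA without any 1 of the ATRA or DMSO libraries, and 0 or 1 with Corin without either Corin library, either ATRA library or the second DMSO library.

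Across the 16 libraries, after each line's mean was subtracted from log2(CPM + 0.5), the members that were expressed in both lines followed each other. Pearson's r was 0.987 for ITGAM with ITGAX, 0.973 for ITGAM with ITGB2 and 0.954 for ITGAX with ITGB2, and lower for ITGAL with the others (0.887 to 0.908). These values describe libraries that share treatments, and no p is given. Among 10554 other genes the closest to ITGAM were SLC7A7 (r = 0.983), CYTH4 (0.980), ENO3 (0.979), ADCY6 (0.977) and SCPEP1 (0.976). Those closest to ITGB2 were IL10RA (0.982), TNFSF9 (0.980), GGT1 (0.977), CD68 (0.976) and DAPK2 (0.974). ADCY6 (0.993), MAP3K12 (0.990) and SLC7A7 (0.989) led for ITGAX, and MEGF9 (0.991), MILR1 (0.985) and TEP1 (0.982) for ITGAL.

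The authors' deposited tables of comparisons with DMSO give 27 log2 fold changes for these genes, none of which differed by more than 0.071 from the values above, and 22 carry an adjusted p under 0.05. For ITGAM with ATRA in SKNO-1 the authors' deposited table gives log2 1.27 with an adjusted p of 0.816 (DESeq2). For ITGAL with Corin in SKNO-1 it gives an adjusted p of 0.0635 (DESeq2). For ITGAL with ATRA in SKNO-1 it gives log2 −2.97 and no adjusted p. All of these changes were called here by edgeR.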

How the data were processed

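RNA-seq of 16 libraries was analysed. Per the labels' protocols, libraries were made with a TruSeq stranded total RNA kit and sequenced paired-end at 100 bp, with 50 M reads as the minimum. The submitters' processing notes name Trimmomatic, STAR, RSEM, deepTools, DESeq2 and hg38. Per the file headers the deposited values are RSEM's estimated counts and, in the library files, TPM; 20.4% of positive estimated counts were not whole (tolerance 0.001). The authors also deposited log2 fold changes and adjusted p-values of their own comparisons, used only where named. The labels name paired-end reads, and gene length minus effective length (99.65 to 99.69 bases) is that of 1 read, so a count may be a read or a fragment.

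Estimated counts were rounded (totals moved by at most 42.03), filtered by filterByExpr, scaled by TMM and fitted with edgeR 4.0.16 (glmQLFit, robust) in R 4.3.3, per line on 8 libraries and, for contrasts between lines, on all 16, with no replicate block. Benjamini-Hochberg adjustment ran over 17479 (SKNO-1), 17717 (U-937) and 19872 genes, threshold 0.05. The standard error is the log2 change over the root of the F statistic, or the counting error where that is larger, since edgeR bounds p by it. Log2 changes and folds printed for the members, and their medians, are not drawn towards 0. Ranks by fold change, and medians over all genes and over the gene lists, use edgeR's log2 change, which is drawn towards 0 at low counts. CPM use TMM totals over 16 libraries. Alternatives used DESeq2 1.42.0, other filters and scalings, GC correction and left-out libraries. On simulated counts, 100% of known log2 2 changes and 97% of log2 1 changes were recovered for Corin in SKNO-1 (17127 genes). Log2 1 changes were recovered at 93% for Corin in U-937 (17247) and 81% for the difference between lines (18604). The simulation gave all genes the same spread, had no GC trend between libraries and changed only well-expressed genes. It therefore does not give the recovery for genes at the low counts of ITGAM, ITGAX and ITGAL in SKNO-1 DMSO.

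The members and the gene lists were chosen with earlier results of these data known. The members are always named. From a list, at most 4 genes were named per comparison: those with the largest change among called genes whose treated libraries both lay beyond both DMSO libraries at 1 CPM or more on average, while TLN1, FERMT3, RAP1A, RAP1B, RASGRP2, APBB1IP and ICAM1 could be named always. Genes alike in pattern were the 5 or 3 with the highest r among genes at 5 CPM or more. Neighbours lie within 150 kb, and 1 of them is not reported here. SPI1 in SKNO-1, ZNF843, TRIM72, TGFB1I1, ARMC5, PYCARD and UBE2G2 were picked for naming after their values were seen.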

Additional observations from a re-analysis of the deposited data

Results flagged for a closer look

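The change with an agent differed between the lines, by a test of that difference, for 10 values (U-937 minus SKNO-1, log2, edgeR's quasi-likelihood test on 16 libraries). With ATRA these were 3.21 for ITGAM, 1.74 for ITGAX, 5.04 for ITGAL and 1.29 for ITGB2. With Corin they were −3.03 for ITGAM, −2.77 for ITGAX and −1.03 for ITGB2. With both agents they were −1.91 for ITGAM, −1.15 for ITGAX and 1.00 for ITGAL. GM-CSF in the medium, the line and the level under DMSO all differ between these groups and cannot be told apart. Groups of 2 libraries allow no check for a single library far from the rest.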

How the results depend on the processing

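Of 1167 values recomputed for 70 results on single members, 1123 kept their direction and their side of the threshold, 32 lost and 10 gained a call, and 2 reversed, both uncalled values of ITGB2 with the GC trend removed: the departure from additivity in SKNO-1 (−0.16) and the difference between lines with both agents (0.0713). The cause was not tested. Changes against DMSO of members in U-937, and with Corin or both agents in SKNO-1, kept their calls in every alternative. With ATRA in SKNO-1 the number of called members was 1 with the replicate block, 1 with DESeq2, 0 with only the libraries compared, and 0 to 3 with single libraries left out. For both agents against Corin in SKNO-1 that range was 1 to 4. For the departure in SKNO-1 it was 1 with no low-count filter, 1 with GC removal and 0 to 1 with libraries left out, and in U-937 it was 1 with the replicate block, 1 with DESeq2 and 1 to 2 with libraries left out. Calls over the whole table moved by more than 1.5 times in SKNO-1 for ATRA (1181; 1963 with no filter, 2413 with GC removal, 239 with only the libraries compared, 562 to 5335 with libraries left out), Corin (6619; 3776 with only the libraries compared, 3626 to 9520), both against ATRA (7828; 4962 to 10907), both against Corin (1822; 4238 with no filter, 1066 with the replicate block, 2865 with GC removal, 7440 with only the libraries compared, 397 to 7126) and the departure (81; 1445 with no filter, 20 with the replicate block, 549 with GC removal, 272 with DESeq2, 7 to 5648). They also moved for Corin in U-937 (2293; 1332 to 2688) and for the Corin difference between lines (2538; 3990 with GC removal, 1388 with only the libraries compared, 1524 to 4471). The highest counts for ATRA, both against Corin and the departure in SKNO-1 came without 1 of its DMSO libraries. Of 2898 values recomputed for 194 results on other named genes, 2644 kept direction and side of the threshold, 194 lost and 34 gained a call, and 26 reversed, all of them for results that were uncalled; of 450 counts over 30 gene list comparisons, 373 stayed within 1.5 times. The reversals were log2 changes of genes that open the integrins from inside, and their cause was not tested. In SKNO-1 with ATRA, TLN1 (0.022) was at −0.012 with DESeq2 size factors, −0.019 with no filter, −0.030 with GC removal, −0.014 with DESeq2 and −0.16 to 0.13 with single libraries left out. With both agents there, RAP1A (−0.031) was at 0.0092 with at least 1 CPM in 2 libraries and 0.21 with GC removal, and RASGRP2 (0.034) at −0.00030 with DESeq2 size factors, −0.31 with GC removal and −0.015 with DESeq2. In U-937 with Corin, RAP1B (−0.034) was at 0.018 with GC removal. Ranges with single libraries left out, in SKNO-1, were −0.74 to 0.16 for FERMT3 and −0.18 to 0.49 for RAP1A with ATRA, −0.14 to 0.53 for RAP1A and −0.097 to 0.12 for RAP1B with Corin, and −0.78 to 0.12 for FERMT3, −0.34 to 0.33 for RAP1A, −0.18 to 0.26 for RASGRP2 and −0.057 to 0.36 for APBB1IP with both. In U-937 they were −0.15 to 0.027 for FERMT3, −0.064 to 0.21 for RAP1A and −0.16 to 0.097 for RAP1B with Corin, and −0.032 to 0.19 for RASGRP2 with both. Deviations of same-numbered libraries had correlations of mixed sign between groups (−0.494 to 0.222 in SKNO-1 and −0.465 to 0.422 in U-937). The labels do not say whether the numbers pair the libraries, and these correlations cannot settle it. The single length per gene used for the α shares was chosen after seeing the data. Low counts limit the precision in SKNO-1 for ITGAL (1 to 55 counts per library) and, under DMSO, for ITGAM and ITGAX (27 and 25 counts over both libraries).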
